A study of Canis lupus familiaris with 58 samples.

Results

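KMO encodes kynurenine 3-monooxygenase, and its expression was followed in B-cell lymphomas of 58 pet dogs, 1 array per dog, sampled before treatment. All probe sets whose only gene symbol was KMO were taken (NCBI gene 480093), which gave 3 of the 43035 probe sets on the canine Affymetrix array and 1 of 15115 named genes. KMO was picked because its level went with outcome in these same dogs, so its relation to survival is given as a description, without a test. Tissue came from lymph node in 39 dogs, of which 32 had diffuse large B-cell lymphoma (DLBCL, a fast-growing disease of large B cells) and 7 had marginal zone lymphoma (MZL, usually a slower disease of the follicle's outer zone). The other 19 samples were fine needle aspirates with a diagnosis given as unknown. By IGHV mutation status, which describes the variable part of the rearranged antibody heavy chain, 26 dogs were labelled static, 27 ongoing and 5 ND, a label not explained. All dogs were client-owned animals seen for veterinary care, with B-cell identity from flow cytometry, immunohistochemistry or both, and neither breed, age nor the treatment given later was used here. Progression-free survival (PFS) was known in 55 dogs with 47 events, and overall survival (OS) in 56, of which 41 died. A PFS event is called progression below, but in 4 dogs it fell on the day of death and may be the death itself. Times are read as days, since the labels print no unit.

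The kynurenine pathway is the main route of tryptophan breakdown. IDO1, IDO2 or TDO2 opens the tryptophan ring, AFMID releases kynurenine, and KMO, an enzyme of the outer mitochondrial membrane, hydroxylates kynurenine to 3-hydroxykynurenine, which KYNU and HAAO carry on towards quinolinic acid and, through QPRT, towards NAD. Kynurenine can instead be turned into kynurenic acid by aminotransferases, so KMO stands at a branch of the pathway. In lymphoid tissue IDO1 is known as an interferon-inducible enzyme of dendritic cells and macrophages that restrains T cells, and KMO is best known from liver, kidney, macrophages and microglia.

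The median log2 value of an array was 7.08 to 7.20. Precision is limited by the number of arrays. The 2 arrays with the lowest mean correlation with the others, 0.941 and 0.952, were both aspirates. The B-cell antigen gene MS4A1 had a median level of 12.73 and was 10.90 or more in all dogs but 1 lymph node DLBCL, at 6.96, which had no outcome recorded and a KMO level of 11.77.

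KMO varied more between tumours than most genes did, with a tail of low values. In the probe set with the highest mean the level ran from 8.27 to 12.91 (log2) with a median of 12.09, a mean of 11.89 and an SD of 0.75 (n = 58). Of the 58 dogs, 51 lay between 11 and 13 and 7 lay below 11. The lowest value belonged to dog 25, a static lymph node DLBCL, and stood 2.11 below the next dog. Of 15115 genes, 20 had a wider gap between the 2 lowest dogs, and 4.17% had a larger SD than KMO, against a median SD of 0.25 over all genes. Dog 25 held the lowest value of 6.24% of all genes, where an even share would be 1.72%, its 3' minus 5' difference in actin and GAPDH controls, which grows as RNA degrades, was 0.083, and its mean correlation with the other arrays was 0.960, at rank 6 from the lowest (median 0.972). Its mean over 17 macrophage markers was 8.67, at rank 54 from the lowest of 58 dogs, and its mean over 13 B-cell markers was 10.11, at rank 40. Results over all dogs that moved by more than 1.5 times or changed sign without dog 25 are given with and without it.

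The 3 probe sets ordered the dogs much alike. The second ran from 7.63 to 12.14 (median 11.15) and the third from 6.46 to 10.96 (median 10.18). Pearson's r across the 58 dogs was 0.974 between the first and the second, 0.925 between the first and the third and 0.953 between the second and the third, with Spearman's rho at 0.943, 0.812 and 0.895, as a description of probe sets that read 1 transcript in the same RNA. Dog 25 was lowest and the same ongoing lymph node DLBCL was highest in all 3, and 5 dogs were among the 7 lowest in all 3. Levels below are those of the first probe set.

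**Figure D1:**
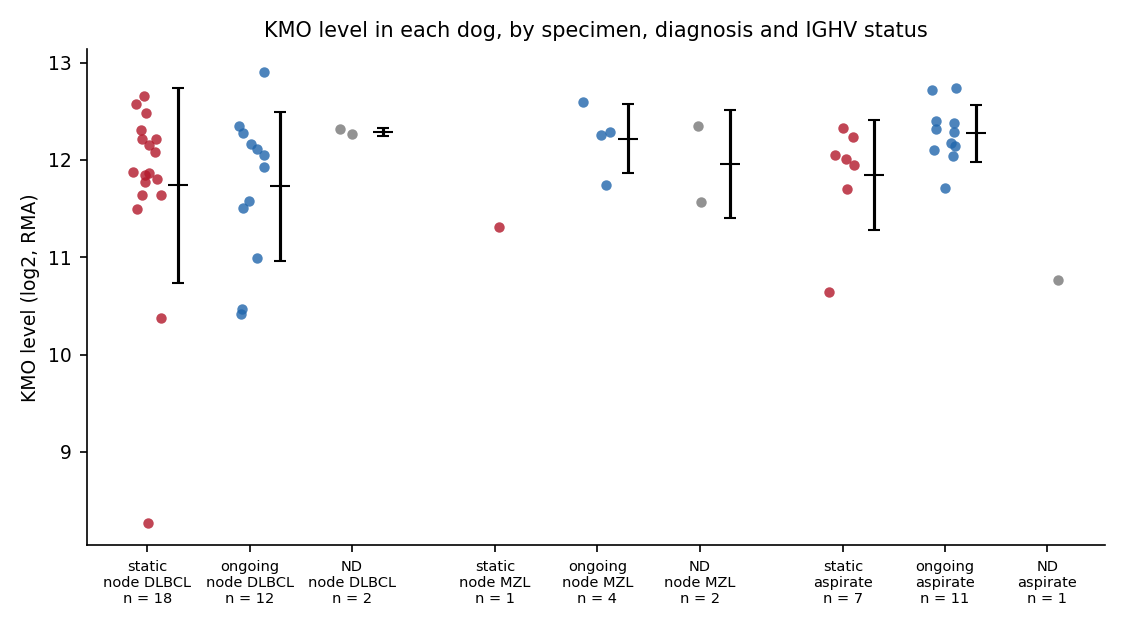
KMO level (log2, RMA) of each dog as a point, grouped by specimen and diagnosis and coloured by IGHV status (red static, blue ongoing, grey ND); bars give the mean and SD of groups with more than 1 dog. Most dogs lie between 11 and 13 in every group except ND aspirates, whose only dog is at 10.77. The lowest point, at 8.27, is a static lymph node DLBCL.

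KMO was lower in dogs that progressed early. Across both specimens the hazard ratio for progression per log2 unit of KMO, stratified by specimen, was 0.480 (95% interval 0.324 to 0.713; 55 dogs, 47 events), with a concordance of 0.651, the share of comparable pairs of dogs that the level orders correctly. For death the hazard ratio was 0.572 (0.386 to 0.848; 56 dogs, 41 events), with a concordance of 0.632. By the size of the Cox score statistic KMO stood at rank 2 of 15115 genes for PFS and at rank 50 for OS. After Benjamini-Hochberg adjustment of the Cox score test, 0 genes (0% of 15115) were called for PFS, with 428 at an unadjusted p under 0.05, and 1 gene (0.00662%), which was not KMO, for OS, with 603. These counts are background over all genes and no test of KMO. Neither the intervals nor the ranks take account of the choice of KMO for its outcome. A high rank follows from that choice and is no support for it. In bulk tissue a smaller share of cells with KMO and less KMO RNA per cell cannot be told apart.

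The individual dogs show where this lies. The 5 lowest KMO levels were 8.27, 10.38, 10.41, 10.46 and 10.64, and these dogs progressed at day 70, 58, 24, 93 and 26 and died at day 116, 98, 71, 93 and 36. For the dog at 10.46 both times are day 93. All 5 were thus among the 9 dogs that progressed by day 100. The other early dogs were higher: KMO was 11.31 with progression at day 67, 11.87 at day 35, 12.04 at day 44 and 12.17 at day 60. Early progression was thus seen at common KMO levels too. The next lowest levels, 10.77 and 10.99, belonged to dogs that progressed at day 270 and 174.

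After day 100 the KMO distributions of dogs grouped by time of progression overlapped widely. Dogs that progressed by day 100 had a median KMO level of 10.64 (lowest 8.27, highest 12.17, n = 9). The median was 12.04 (10.99 to 12.74, n = 14) with progression after day 100 and by day 200, 12.06 (10.77 to 12.91, n = 12) by day 300 and 12.18 (11.50 to 12.72, n = 12) after day 300. In the 8 dogs with no progression recorded it was 12.30 (11.57 to 12.60). These bands were set after the data were seen, and the medians differ little once the earliest band is left aside.

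The same bands of OS gave a like picture. Dogs that died by day 100 had a median of 10.64 (10.38 to 12.17, n = 7), those that died after day 100 and by day 200 11.93 (8.27 to 12.74, n = 11), by day 300 12.12 (10.99 to 12.57, n = 10) and after day 300 12.28 (10.77 to 12.91, n = 13). The 15 dogs with no death recorded lay between 11.57 and 12.60, with a median of 12.10. With follow-up ended at day 180 the hazard ratio was 0.442 (0.290 to 0.674; 22 events) for PFS and 0.501 (0.333 to 0.753; 14 events) for OS. Among dogs still at risk after day 180 it was 0.733 (0.272 to 1.98; 25 events) and 0.985 (0.401 to 2.42; 27 events). The difference between early and late follow-up was not tested. Counted from progression to death, in the 43 dogs whose PFS event came before their OS time, with 36 deaths, the hazard ratio of KMO was 0.728 (0.482 to 1.10).

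**Figure D2:**
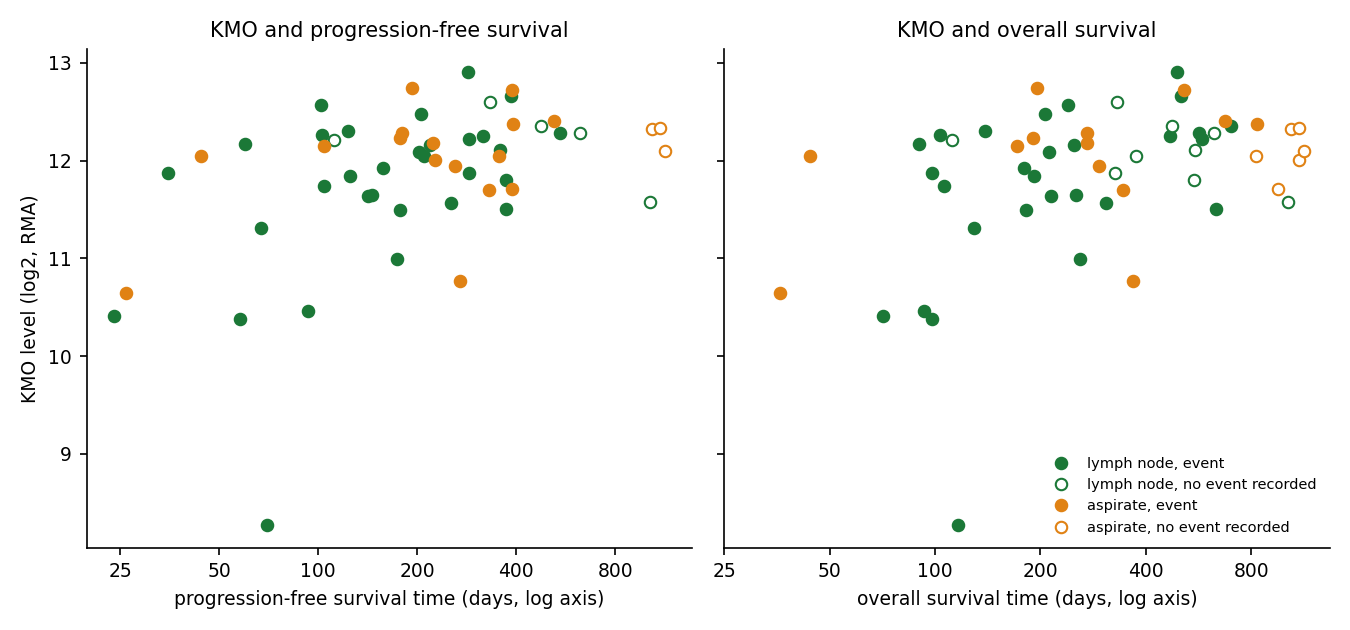
KMO level (log2, RMA) against PFS time (left) and OS time (right) in days on a log axis, with lymph node in green and aspirates in orange; filled points are events and open points dogs with no event recorded. The 5 dogs with KMO between 8.27 and 10.64 all lie at a PFS time of 93 days or less.

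The hazard ratio was alike in size in both specimens, with unequal precision. In lymph node it was 0.481 for PFS (0.313 to 0.740; 36 dogs, 31 events) and 0.560 for OS (0.369 to 0.850; 37 dogs, 28 events). In aspirates it was 0.476 for PFS (0.177 to 1.28; 19 dogs, 16 events) and 0.659 for OS (0.216 to 2.01; 13 events), so that these intervals reach from a strong inverse relation to a direct one. Concordance was 0.60 for PFS and 0.53 for OS in aspirates, against 0.67 and 0.66 in lymph node. The lowest aspirate, dog 46 at 10.64, progressed at day 26, and no hazard ratio was fitted to aspirates without it. The difference between specimens was not tested. In lymph node DLBCL alone the hazard ratio was 0.519 for PFS (0.324 to 0.833; 30 dogs) and 0.626 for OS (0.393 to 0.997). Without dog 25 these DLBCL values were 0.424 (0.190 to 0.946) and 0.553 (0.239 to 1.28).

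Leaving out dog 25 moved the hazard ratio away from 1. It was then 0.378 for PFS (0.210 to 0.682) and 0.477 for OS (0.257 to 0.885) over both specimens, and 0.329 for PFS (0.155 to 0.697) in lymph node. Of all dogs left out in turn, dog 25 gave the lowest hazard ratio for both outcomes, and the highest values were 0.505 for PFS and 0.602 for OS. Within IGHV status the hazard ratio for PFS was 0.486 in static dogs (0.292 to 0.806; 25 dogs), 0.183 in static dogs without dog 25 (0.0575 to 0.581) and 0.386 in ongoing dogs (0.147 to 1.01; 27 dogs). For OS it was 0.455 in static dogs (0.253 to 0.817), 0.250 without dog 25 (0.0772 to 0.808) and 0.538 in ongoing dogs (0.192 to 1.51).

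Levels of other genes in the model changed the hazard ratio of KMO little. For PFS it was 0.453 with the monocyte receptor gene CD14 in the model, 0.482 with the scavenger receptor gene CD163, 0.480 with MS4A1 and 0.456 with the B-cell receptor gene CD79A. With the mean of 17 measured macrophage markers it was 0.508, with the mean of 13 B-cell markers 0.476 and with 5 proliferation genes 0.483. With IGHV status, in 52 dogs with 44 events, it was 0.484. For OS these values lay between 0.542, with CD14, and 0.602, with the macrophage mean. KMO had r of -0.21 with the macrophage mean, -0.0044 with the B-cell mean and -0.27 with the proliferation mean. As KMO was chosen for its outcome, these models are a description. The CD163 probe set in the model hardly varied between dogs (SD 0.17), and its r with the other 3 was 0.0435 to 0.0898. That model therefore says little about CD163.

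**Figure D3:**
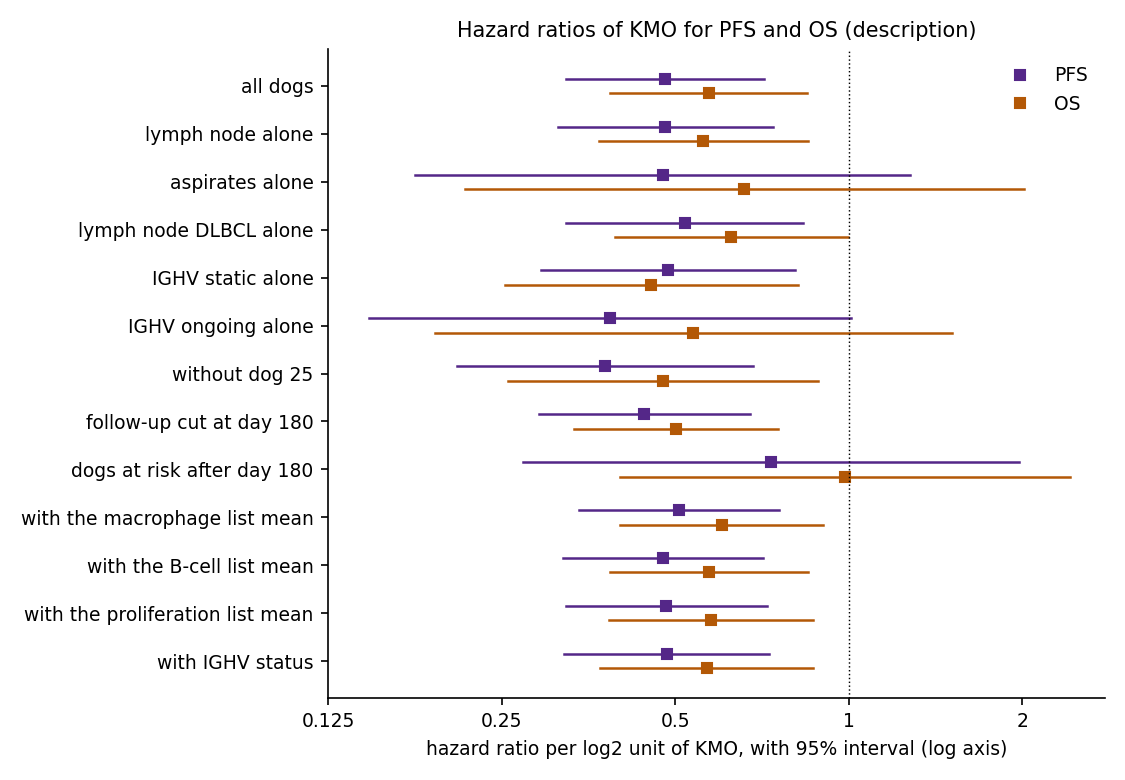
Hazard ratio per log2 unit of KMO (squares) with its 95% interval (lines) on a log axis, for PFS in purple and OS in brown, in all dogs, in subsets and with other measures in the model. The PFS squares lie between 0.378 (without dog 25) and 0.733 (dogs at risk after day 180), and the dotted line marks a ratio of 1.

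IGHV status was compared next, since B cells that keep mutating this gene resemble those of a germinal centre. The 26 static dogs had a mean KMO level of 11.75 ± 0.88 (SD) and the 27 ongoing dogs 12.02 ± 0.61, with ranges of 8.27 to 12.66 and 10.41 to 12.91 and so a shared stretch of 10.41 to 12.66. Of the 26 static dogs, 2 lay below the lowest ongoing dog. With the stratum of specimen and diagnosis in the limma model, static minus ongoing was -0.20 ± 0.21 (SE), a fold of 0.869 (adjusted p = 0.858 over all genes; limma called 0% of 15115 genes, 0 genes, with 1077 at an unadjusted p under 0.05). Without dog 25 the difference was -0.09 ± 0.16 (adjusted p = 0.941). In lymph node DLBCL alone it turned to 0.01 ± 0.33.

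In aspirates the spread was narrower. KMO was 11.84 ± 0.57 (n = 7; lowest 10.64, median 12.01, highest 12.33) in static and 12.27 ± 0.29 (n = 11; 11.71, 12.29 and 12.74) in ongoing aspirates. The groups overlapped, with 2 of 7 static aspirates below the lowest ongoing one and 4 of 11 ongoing ones above the highest static one. Aspirates alone gave a difference of -0.43 ± 0.19 by limma (unadjusted p = 0.0371, adjusted p = 0.316), and -0.23 ± 0.13 without the lowest static aspirate, dog 46 (unadjusted p = 0.108, adjusted p = 0.501). The interaction of status and specimen was -0.35 ± 0.44 (limma adjusted p = 0.868, in a fit that called 0.0132% of 15115 genes), so a difference between specimens was not detectable with these dogs. It was -0.53 ± 0.33 without dog 25 (adjusted p = 0.645), -0.15 ± 0.45 without dog 46 (adjusted p = 0.963) and -0.06 ± 0.48 with the third KMO probe set (adjusted p = 0.986), all by limma.

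Diagnosis and specimen did not separate KMO levels beyond the spread between dogs. The 7 MZL had levels of 11.31, 11.57, 11.74, 12.26, 12.29, 12.35 and 12.60, which lie inside the DLBCL range of 8.27 to 12.91 (median 11.99, n = 32). MZL minus DLBCL was 0.25 ± 0.34 (SE), a fold of 1.19 (limma adjusted p = 1.00; 0 genes or 0% of 15115 called, with 176 at an unadjusted p under 0.05), and 0.13 ± 0.24 without dog 25. Among the MZL, the dogs at 11.31 and 11.74 progressed at day 67 and 104, those at 11.57 and 12.26 at day 254 and 317, and those at 12.29 and 12.60 had no progression recorded at day 625 and 332. Aspirates had a mean of 12.04 ± 0.54 (SD, n = 19) and lymph nodes 11.81 ± 0.83 (n = 39), a difference of 0.22 ± 0.20 (SE; limma adjusted p = 0.717) that was 0.13 ± 0.16 without dog 25, in a comparison that called 0.119% of 15115 genes, 0.0926% higher and 0.0265% lower in aspirates.

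KMO was next set against genes of the cells it might come from. Macrophages and monocytes carry CD14 and CD163, and B cells carry MS4A1 and CD79A. The level of CD14 ran from 7.66 to 9.35 (median 8.24) and that of CD79A from 6.37 to 10.86 (median 8.67). Over 58 dogs Pearson's r of KMO was -0.090 with CD14 (permutation p = 0.500), -0.015 with MS4A1 (permutation p = 0.896) and -0.19 with CD79A (permutation p = 0.145). Spearman's rho was -0.27 (permutation p = 0.0424), 0.083 (permutation p = 0.537) and -0.087 (permutation p = 0.515). Without dog 25 Pearson's r was -0.26 with CD14, 0.033 with MS4A1 and -0.11 with CD79A. Over the 24 relations computed, with 4 genes, 3 sets of dogs and both coefficients, all adjusted permutation p were at or above 0.0701.

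Within specimens the signs were not shared by all. For CD14, r was 0.017 in lymph node (permutation p = 0.915) and -0.35 in aspirates (permutation p = 0.139), with rho at -0.16 and -0.46 (permutation p = 0.337 and 0.0521). For MS4A1, r was 0.0030 in lymph node (permutation p = 0.981) and -0.16 in aspirates (permutation p = 0.479), with rho at 0.19 and -0.22 (permutation p = 0.244 and 0.369). For CD79A, r was -0.22 in lymph node (permutation p = 0.183) and -0.21 in aspirates (permutation p = 0.380), with rho at -0.12 in each (permutation p = 0.482 and 0.629). Without the 2 dogs farthest from the KMO median, dogs 25 and 10, r over 56 dogs was -0.31 with CD14 (permutation p = 0.0218), 0.088 with MS4A1 (permutation p = 0.479) and -0.078 with CD79A (permutation p = 0.567). The same step, which left out dogs 46 and 52 in aspirates, gave -0.27 (permutation p = 0.103) in lymph node and -0.23 (permutation p = 0.363) in aspirates for CD14, and -0.022 (permutation p = 0.898) in lymph node and 0.13 (permutation p = 0.619) in aspirates for CD79A. For MS4A1 it gave 0.16 (permutation p = 0.303) in lymph node and -0.11 (permutation p = 0.681) in aspirates. For CD14, r was thus more negative without these dogs over both specimens and in lymph node, and less negative in aspirates. Dog 25, with the lowest KMO, also had a low CD14 level of 7.80.

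CD163 gave opposite signs in different probe sets. The probe set with the highest mean had r = 0.16 over 58 dogs (permutation p = 0.221) and rho = 0.28 (permutation p = 0.0319). In lymph node r was 0.26 (permutation p = 0.110) with rho = 0.47 (permutation p = 0.00290), and in aspirates r was -0.041 (permutation p = 0.871) with a rho of 0.00 (permutation p = 1.00). Without dogs 25 and 10, r was 0.17 (permutation p = 0.217). That probe set hardly varied between dogs (SD 0.17), and its r with the other 3 CD163 probe sets was only 0.0435 to 0.0898. Those 3 had SDs of 0.364 to 1.03 and r with KMO of -0.32 to -0.20, or -0.20 to -0.042 without dog 25. The sign of the KMO and CD163 relation is therefore not settled by these data.

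**Figure D4:**
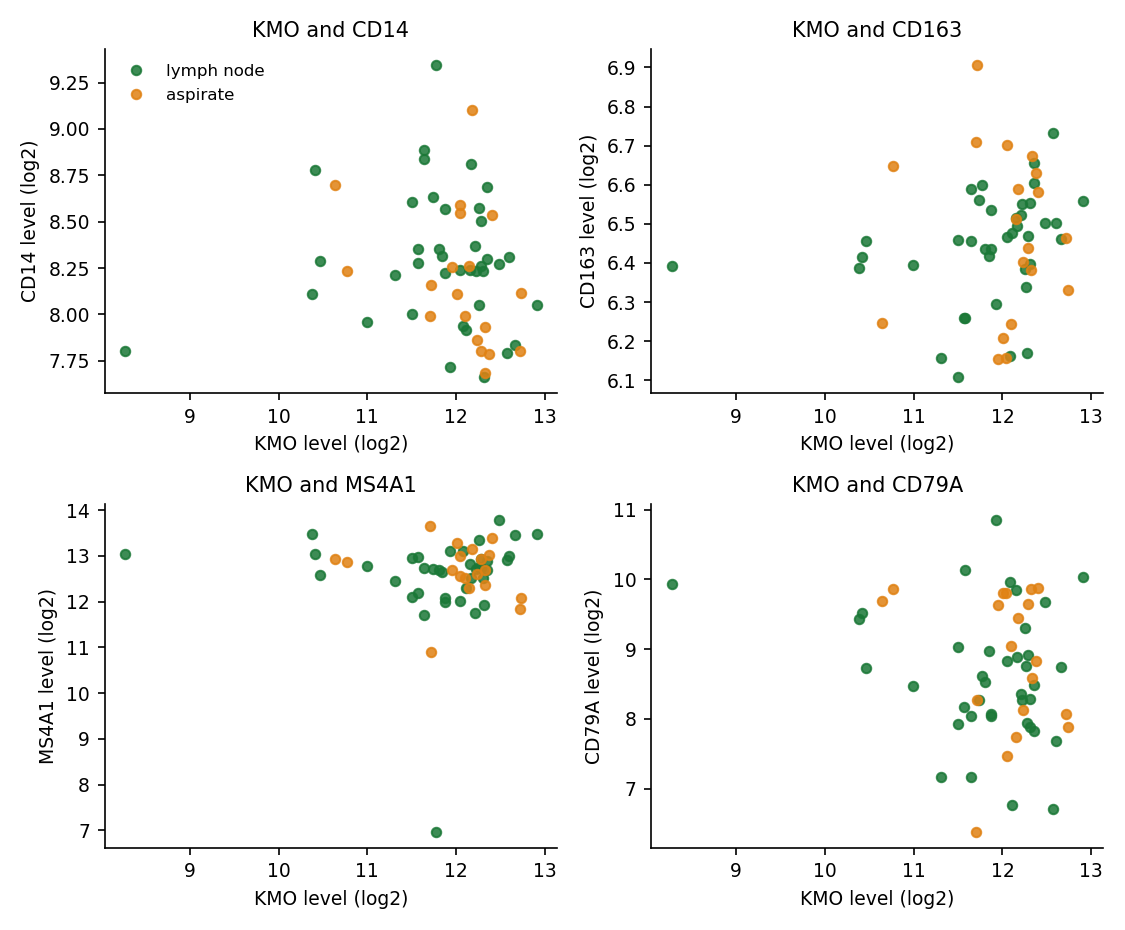
Level (log2) of CD14, CD163, MS4A1 and CD79A, each in its probe set with the highest mean, against the KMO level (log2) in 58 dogs, with lymph node in green and aspirates in orange. The dog with KMO at 8.27 lies far left in each panel, and no panel shows a steady rise or fall; r over all dogs runs from -0.19 (CD79A) to 0.16 (CD163).

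Each of the other genes was then fitted on the KMO level by limma, with the stratum as a covariate. This called 345 of 15114 genes (2.28%), 148 with a higher level (0.979%) and 197 with a lower level (1.30%) at higher KMO, at an adjusted p under 0.05. Without dog 25 it called 356 genes, of which 112 were shared, 32.5% of the first and 31.5% of the second list. In aspirates alone it called 0 genes, with 706 at an unadjusted p under 0.05. All r values from here on are across dogs after subtracting the mean of each stratum, and are descriptions. Those given for a single specimen are of the levels with no mean subtracted.

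Of 78 marker genes of 10 cell types measured, 1 passed in the fit on KMO, or 1.28% against 2.28% of all genes, so the counts of 0 in lists this short are near the background. The mean of the macrophage list ran from 7.48 to 9.19 in lymph node and from 7.63 to 9.02 in aspirates, and that of the B-cell list from 8.99 to 10.58 and from 9.20 to 10.61. In the macrophage list 0 of 17 measured markers passed, with a median r of -0.081 against -0.0056 over all genes (-0.12 and -0.049 without dog 25), and the complement genes C1QB and C1QC at -0.32 and -0.29, which shrank to -0.13 and -0.16 without dog 25. The colony-stimulating factor receptor gene CSF1R was at -0.24 and the complement receptor gene VSIG4 at -0.20. The complement gene C1QA was at -0.021 (0.043 without dog 25). Of the 17 markers, 6 had r above 0, such as MRC1 at 0.0975. In the B-cell list 0 of 13 passed (median r -0.017, and 0.021 without dog 25), with the early B-cell factor gene EBF1 at 0.29, the germinal centre regulator BCL6 at 0.24 and the coactivator gene POU2AF1 at -0.23. Of 8 dendritic cell markers 1 passed: the cytokine receptor gene FLT3 fell with KMO by 0.15 ± 0.039 (SE) per log2 unit (limma adjusted p = 0.0296), and with an adjusted p of 0.226 without dog 25. The r of FLT3 was -0.56 in lymph node against 0.16 in aspirates, a difference that was not tested.

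Of 11 T-cell markers 0 passed (median r 0.046), with the receptor chain gene CD3G at 0.34 and CD8A at -0.31. CD8A was at -0.12 without dog 25, and at -0.50 in lymph node against 0.12 in aspirates. Of 7 granulocyte markers 0 passed; all 7 had r above 0 with dog 25 (0.067 to 0.21, highest in S100A8) and 5 of 7 without it, with ELANE at -0.062 and CSF3R at -0.10. Of 4 plasma cell genes 0 passed, with the plasma cell regulator PRDM1 at -0.34 and DERL3 at -0.27 (-0.42 without dog 25). In aspirates PRDM1 was at 0.36. Of 5 proliferation genes 0 passed and all 5 were below 0, with the topoisomerase gene TOP2A at -0.30 and the cyclin gene CCNA2 at -0.29; without dog 25 the mitotic kinase gene AURKA passed (slope -0.41 ± 0.10, limma adjusted p = 0.0259). The collagen genes COL3A1 and COL1A1 were at -0.25 and -0.22 among 6 stromal genes, of which 0 passed. The liver albumin gene ALB was at -0.33, the lowest of 5 hepatocyte genes, none of which passed. Of these 5, 3 had r above 0, and their median r was 0.061 (-0.039 without dog 25). Endothelial markers ran from -0.10 (PECAM1, and -0.19 without dog 25) to 0.11 (CDH5, and 0.0061) with 0 of 5 passing. Of 6 listed red cell genes 2 were measured and 0 passed: ALAS2 was at -0.057 and SLC4A1 at 0.11, and without dog 25 at -0.16 and -0.19.

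No other gene of the kynurenine pathway passed in the fit on KMO. All 12 other listed genes were measured, and 0 passed in either direction, against 2.28% of all genes (3 had an unadjusted p under 0.05). Among the enzymes of the first step, IDO1 had a level of 6.77 to 10.41 (median 8.04) and r = -0.21 with KMO, IDO2 0.29 and TDO2 -0.11. The IDO2 value rests on 1 of 4 probe sets, which varied little (SD 0.17). With no mean subtracted its r was 0.30, and the other IDO2 probe sets had -0.075, 0.026 and 0.13. A positive relation of IDO2 with KMO is therefore not settled by these data. Without dog 25 the r of IDO1 was -0.10, and it was -0.34 in lymph node against 0.16 in aspirates, a difference that was not tested. The dog with the lowest KMO had IDO1 at 9.59, and the next 4 dogs had 7.03, 8.99, 8.67 and 8.05, so low KMO came with both low and high IDO1. AFMID, the formamidase that releases kynurenine, had r = -0.31 (slope -0.13 ± 0.054, SE; limma adjusted p = 0.228).

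Downstream of KMO, KYNU ran from 7.23 to 11.09 (median 9.75) with r = -0.054, and HAAO had -0.033, QPRT -0.0022 and ACMSD, the decarboxylase that diverts the chain from NAD, 0.033. Without dog 25 HAAO was at -0.052, QPRT at -0.17 and ACMSD at 0.0005. Some of these values depended on the probe set. With no mean subtracted, r was 0.023 in the HAAO probe set used (SD 0.21) and -0.23 in the other (SD 0.80). For QPRT it was -0.026 in the probe set used and 0.080 in the other. In aspirates KYNU was at -0.44 and in lymph node at 0.090. The aminotransferases of the kynurenic acid branch were spread: KYAT3 had r = 0.37 (slope 0.20 ± 0.066, limma adjusted p = 0.109), AADAT and GOT2 0.087 each and KYAT1 -0.095. Without dog 25 AADAT was at -0.060, GOT2 at 0.018 and KYAT1 at -0.20. With no mean subtracted, r was 0.34 in the KYAT3 probe set used and 0.18 in each of the others. For GOT2 it was 0.075 in the probe set used and -0.068 in the other. In the neighbouring steps, NMNAT3, which joins the last parts of NAD, had r = 0.36 and NAPRT, of the nicotinic acid route, -0.30 (-0.18 without dog 25), with 0 of 6 NAD genes passing. Of the kynurenine-binding aryl hydrocarbon receptor genes 0 of 4 passed; AHR was at -0.12 and its partner ARNT at -0.30, and without dog 25 they were at -0.034 and 0.12. The amino acid carrier genes SLC7A5 and SLC3A2 were at -0.23 each (-0.33 and -0.37 without dog 25), with 0 of 5 tryptophan genes passing. In the interferon gamma list 0 of 7 passed, with IFNGR2 at -0.34, CXCL10 at -0.29 and GBP5 at 0.24.

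IDO1 and KYNU had other r values with the marker lists than KMO, a difference that was not tested. The r of IDO1 was 0.52 with the mean of the interferon gamma list and 0.38 with the macrophage mean, where KMO had -0.25 and -0.21 (-0.27 and -0.13 without dog 25). KYNU had r = 0.46 with the B-cell mean, where KMO had -0.024 (0.050 without dog 25). IDO1 and KYNU had r = 0.040 with each other.

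None of the 12 other pathway genes passed for outcome, where almost no gene of the series did. By the Cox score test 0 of 12 genes passed for PFS and 0 of 12 for OS, against 0% and 0.00662% of all genes, with 0 and 2 (IDO2 and AFMID) at an unadjusted p under 0.05. The hazard ratio for PFS was 1.10 for IDO1 (0.769 to 1.59), 1.08 for KYNU (0.711 to 1.64), 0.712 for TDO2 (0.363 to 1.40), 2.10 for AFMID (0.823 to 5.37) and 0.697 for KYAT3 (0.350 to 1.39). Intervals of genes that varied little, such as QPRT (SD 0.12; 0.0282 to 4.30), were too wide to read. For IGHV status, diagnosis and specimen 0 of 12 pathway genes passed in limma, against 0%, 0% and 0.119% of all genes. At an unadjusted p under 0.05 there were 1, 0 and 1 of 12, against 1077, 176 and 1780 of 15115 genes: QPRT was higher in static dogs by 0.08 ± 0.036 (adjusted p = 0.690) and HAAO in aspirates by 0.18 ± 0.053 (adjusted p = 0.137).

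Of the neighbours of KMO on its chromosome, CHML, a Rab escort protein gene, had r = 0.47 and passed (slope 0.44 ± 0.11, limma adjusted p = 0.0156; 0.0221 without dog 25). The opsin gene OPN3, which overlaps KMO in the RefSeq gene table, had r = 0.35 (adjusted p = 0.139) and the fumarase gene FH 0.20 (adjusted p = 0.550). Whether probes of OPN3 and KMO read shared sequence was not tested.

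The genes most like KMO over 58 dogs were AUTS2 (r = 0.68), the ubiquitin ligase gene SMURF2 (0.62), the MAP kinase phosphatase gene DUSP6 (0.61), SPATA7 (0.61), TESPA1 (0.60), MEMO1 (0.59), ATP23 (0.58), SPIDR (0.56), SLC35E3 (0.56) and STRADB (0.56). Without dog 25, 6 of these 10 still passed in the fit on KMO: AUTS2, SMURF2, DUSP6, SPATA7, SPIDR and SLC35E3. SPATA7 then had r = 0.66, while ATP23 dropped to 0.33 and TESPA1 to 0.36. In aspirates alone r was 0.70 for SPATA7 and 0.64 for DUSP6, but -0.16 for STRADB. The genes most opposite were TMTC1 (-0.70), SORBS2 (-0.69), the elastase gene CELA1 (-0.68), the homeobox gene HOXB7 (-0.67) and the cytolinker gene PLEC (-0.67). HOXB7 and PLEC still passed without dog 25, at -0.53 and -0.66, and TMTC1, SORBS2 and CELA1 did not, at -0.38, -0.36 and -0.38. The members of both lists were chosen by r over these dogs, so that their r is a description.

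**Figure D5:**
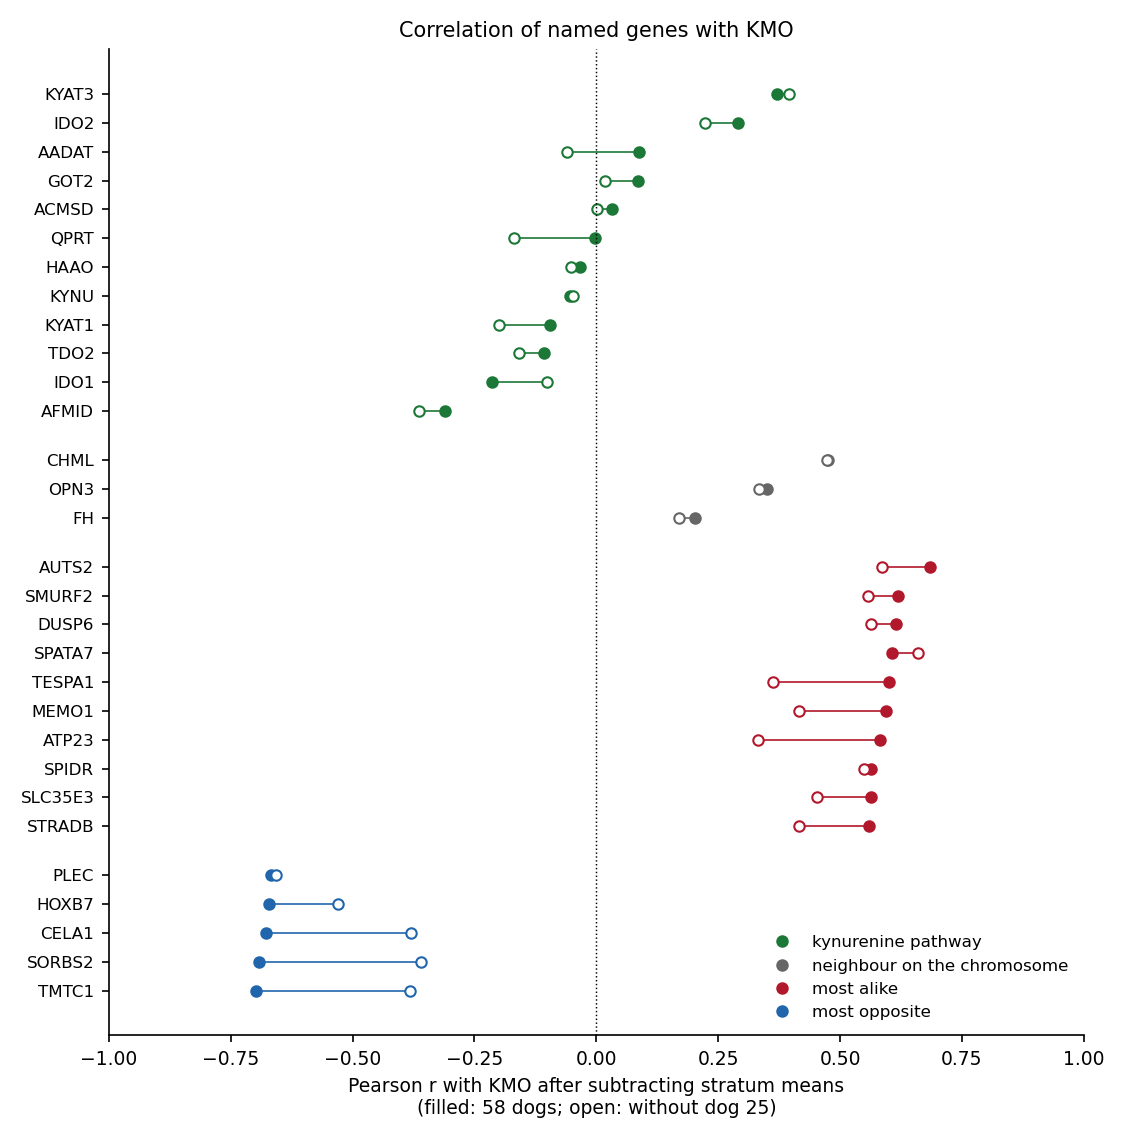
Pearson's r of each named gene with KMO across dogs after subtracting stratum means (x axis), with 58 dogs (filled) and without dog 25 (open); colours mark kynurenine pathway genes, chromosome neighbours and the genes most like and most opposite to KMO. The pathway genes lie between -0.31 (AFMID) and 0.37 (KYAT3), and several of the most alike and opposite genes move towards 0 when dog 25 is left out.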

How the data were processed

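Each of the 58 arrays had 43035 probe sets with values deposited on a log2 scale. They came from Affymetrix Expression Console and RMA, per the submitters' processing notes. Total RNA was extracted with Trizol and labelled with a biotin kit, per the labels' protocols. Tool versions and joint normalization are not given in the sources used here, nor is the genome build behind the array. No sequence is printed.

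A platform annotation named 29254 probe sets with 1 symbol, 439 with several and 13231 with none, besides 111 control probe sets. A gene was read from its probe set with the highest mean, with no level filter. limma 3.58.1 in R 4.3.3 fitted linear models with eBayes and Benjamini-Hochberg adjustment at 0.05. Cox models (survival 3.8.3, Breslow ties) were stratified by specimen, and 1 was taken to mark an event, since in all 8 dogs with a 0 for PFS both times were equal. Permutation tests were two-sided with 100000 draws, or every assignment for diagnosis. Each sample is a different dog. Limma and the Cox score were tested on simulated data.

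KMO and the gene lists were chosen with earlier results of these data known. The named genes are KMO, CD14, CD163, MS4A1, CD79A, the kynurenine pathway, up to 4 members of each other list with the largest r, the 10 genes most like KMO and the 5 most opposite, without LOC symbols, and up to 3 coding neighbours on either side from a RefSeq gene table (assembly UU_Cfam_GSD_1.0). Alternatives were another probe set rule, array centring, left-out arrays or dogs, single specimens, covariates and ranks.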

Additional observations from a re-analysis of the deposited data

Results flagged for a closer look

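Of 9 label groups of 4 to 10 dogs tested for a dog far from the others, 3 held one for KMO. Chance flags about 1 in 20 groups of normal, separate values, but KMO levels were skewed, some groups share dogs, and the bands of PFS and OS were set after the data were seen, so that rate is not a reference here. In static aspirates the lowest dog had 10.64 against 11.70 for the next. In lymph node ND samples the lowest of 4 had 11.57 against 12.26. Among the 9 dogs that progressed by day 100, dog 25 had 8.27 against 10.38 for the next.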

How the results depend on the processing

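No paired analysis was possible because replicate numbers are only names of different dogs. The hazard ratios of KMO stayed below 1 under all 25 alternatives for each outcome. KMO was chosen for its outcome in these same dogs, so this is a description and no separate evidence. Among the 25, the fit without dog 25 and the lowest leave-one-out fit are the same. The hazard ratios moved by over 1 SE without dog 25 for PFS (0.378), and in dogs at risk after day 180 (0.733 for PFS, 0.985 for OS). Leaving out each dog in turn gave 0.378 to 0.505 for PFS and 0.477 to 0.602 for OS. Per SD the ratio was 0.578 for PFS and 0.658 for OS, and with normal scores of the ranks 0.605 and 0.739 (0.522 to 1.05). The differences of KMO by diagnosis, specimen and their interaction with status kept sign and stayed above the threshold under all alternatives run; permutation gave p = 0.485 for diagnosis (every assignment), 0.299 for specimen and 0.368 for status. Leaving out each dog gave -0.28 to -0.09 for status, 0.13 to 0.36 for diagnosis, 0.13 to 0.30 for specimen and -0.53 to -0.15 for the interaction. Static minus ongoing turned to 0.0097 in lymph node DLBCL alone. The r with CD14 turned to 0.0174 in lymph node and 0.0156 in lymph node DLBCL, and was -0.263 without dog 25 (permutation p = 0.0480). The r with CD163 turned to -0.286 with means of probe sets (permutation p = 0.0277), -0.0405 in aspirates and -0.0363 with the third KMO probe set. The r with MS4A1 turned to 0.0392 with means of probe sets, 0.0030 in lymph node, 0.0333 without dog 25, and 0.0400 and 0.103 with the second and the third KMO probe sets; leaving out each dog gave -0.0557 to 0.0333. The r with CD79A kept its sign under 12 alternatives. Genes called for PFS numbered 1 with means of probe sets; for OS 2 with means and 0 without the 25% of genes with the lowest mean; for IGHV status 6 in aspirates alone; with KMO 0 in aspirates alone; and for specimen, against 18, 58 with means, 10 without the 2 arrays of lowest mean correlation, 41 with arrays centred and 47 without dog 25. Why these values and counts changed was not tested in any setting. Alternatives without dog 25 or 46, day 180, other KMO probe sets, single marker genes and proliferation were chosen after seeing the data.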
